A study of Mus musculus with 6 samples.

Results

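The 10 genes described here are Trp53, which encodes the transcription factor p53, and 9 genes known to be induced by it: Cdkn1a, Mdm2, Ccng1, Trp53inp1, Sesn2, Zmat3, Phlda3, Aen and Eda2r. They were taken by symbol from the deposited table of 20482 genes, where each symbol occurs on its own row, and all 10 passed the filter on low counts. RNA was sequenced from 6 subcutaneous tumours of H22, a mouse hepatocellular carcinoma line, grown in male C57BL/6 mice that were 6 weeks old at implantation and are labelled wild type. The 3 resistant tumours came from mice given 100 mg/kg lenvatinib per day, an inhibitor of several receptor tyrosine kinases, injected into the peritoneum on 2 days each week for 2 cycles. The 3 sensitive tumours came from control mice, whose protocol text names PBS with 0.1% DMSO but also the drug, and the treatment field reads as untreated for every tumour. Exposure to the drug and resistance to it cannot be told apart in this design, which uses 1 cell line and male hosts.

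p53 is held at a low protein level in unstressed cells, chiefly because Mdm2, a ubiquitin ligase that p53 itself induces, marks it for degradation. DNA damage and other stresses stabilise the protein, which then binds DNA as a tetramer and raises transcription of genes for cell cycle arrest, cell death, DNA repair and metabolism. Control of p53 lies largely at the protein, so the level of Trp53 RNA need not follow its activity. Neither the p53 protein nor mutations in the gene were measured in these tumours.

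A p53 binding site is made of a pair of copies of a 10-base motif, called here by its name, the p53 half-site consensus, which reads the same on both strands. It was searched in RefSeq promoters (GRCm38.p6) from 250 bases before to 50 bases after the start of transcription, a window of 300 bases. The table held a promoter for 8 of the 10 genes, and 5 of these genes had at least 1 copy of the motif. A copy was found in 9.55% of all 27025 genes in the table, and in 8.36% of its 32851 promoters. Whether the motif goes with a difference between the groups was not tested. The 5 stretches shown are those of all the genes with a copy. They are written 5′ to 3′ on the strand of the gene, with each copy of the motif in capitals and 25 bases on either side.

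Cdkn1a: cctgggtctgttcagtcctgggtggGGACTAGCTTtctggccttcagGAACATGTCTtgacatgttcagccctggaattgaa
Mdm2: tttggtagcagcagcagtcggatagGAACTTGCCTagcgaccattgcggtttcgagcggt
Ccng1: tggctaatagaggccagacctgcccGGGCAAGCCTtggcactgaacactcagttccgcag
Trp53: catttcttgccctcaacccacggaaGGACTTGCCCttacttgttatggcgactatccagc
Aen: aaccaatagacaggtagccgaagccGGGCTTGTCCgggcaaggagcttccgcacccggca

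The Cdkn1a stretch lies at chr17:29090881-29090962 on the plus strand, near the upstream of the 2 starts that RefSeq lists for the gene. Its copies of the motif begin at -73 and -51 from that start and are 12 bases apart. A pair of exact copies with a spacer of up to 13 bases was found in 24 promoters, or 0.0731% of the table, and Cdkn1a was the 1 gene of the 8 searched with such a pair. The 10 bases that follow its second copy match the consensus at 9 of 10 letters. In Ccng1 (chr11:40755437-40755496, minus strand, motif at -185) the 10 bases before the copy also match at 9 of 10 letters. Adjoining copies with at most 1 letter off were found in 0.0883% of all promoters. The other stretches are Mdm2 at chr10:117710910-117710969 on the minus strand with the motif at -186, Trp53 at chr11:69580259-69580318 on the plus strand with the motif at -75, and Aen at chr7:78895912-78895971 on the plus strand. The promoters of Phlda3, Sesn2 and Eda2r held no copy in this window. A match is a likeness of letters and does not show that p53 binds there.

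Total counts ran from 15995403 to 17545098 per tumour, so that 3 counts are 0.171 to 0.188 CPM (counts scaled to a common library size by TMM, which sets a common scale between tumours). All 8 hepatocellular markers were read in every tumour, with Alb at 112 to 198 CPM, Krt18 at 283 to 666 CPM and Hnf4a at 0.716 to 2.68 CPM. Their log2 fold changes (resistant minus sensitive) were above 0 in 4 and below 0 in 4. The sensitive tumours lay above every resistant one in 2 of the 8 and the resistant tumours in 1, against 7.54% and 8.41% of all tested genes. Alb was lower in the resistant tumours (-0.64 ± 0.11) and Krt8 higher (1.16 ± 0.26), each at an edgeR adjusted p of 0.510. Sensitive tumour 2 stood apart. The 5 markers of B and plasma cells summed to 2158 CPM there, to 14.1 and 6.45 CPM in sensitive tumours 1 and 3, and to between 1.13 and 4.58 CPM in the resistant tumours. Skeletal muscle markers summed to 978 CPM in sensitive tumour 1, to between 0.832 and 192 CPM in the resistant tumours, and to 1.85 CPM or less in the other sensitive tumours. The summed markers of endothelium (97.2 to 405 CPM, highest in sensitive tumour 2), macrophages (401 to 1300 CPM), fibroblasts (870.1 to 3297 CPM), neutrophils (19.3 to 81 CPM) and fat (5.59 to 405 CPM) overlapped between the groups. Yet all 4 endothelial and all 3 fat markers had log2 fold changes (resistant minus sensitive) below 0, as had 7581 of the 14392 genes tested. Their medians were -0.96 and -1.93, or -0.57 and -1.76 without sensitive tumour 2. The 6 T cell markers, the 4 skeletal muscle markers and the 2 tested B and plasma cell markers also all lay below 0. In that order, their medians were -3.46, -2.08 and -6.67, or -1.31, -2.66 and -1.50 without sensitive tumour 2. The medians of macrophages, fibroblasts and neutrophils were 0.10, 0.51 and 0.25 with all tumours, and 0.24, 0.52 and 1.82 without sensitive tumour 2. Mitochondrially encoded genes held 5.6 to 16.4% of the counts, most in sensitive tumour 1. In bulk tissue, fewer cells of a type and less RNA per cell cannot be told apart.

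Compared between the resistant and the sensitive tumours, the 10 genes did not lie to one side. Mdm2, Ccng1 and Trp53 stood lower in all 3 resistant tumours than in any sensitive tumour, Cdkn1a, Phlda3 and Sesn2 had higher means in the resistant tumours with overlapping groups, and Zmat3 and Aen had means within 2 CPM of each other. By edgeR's quasi-likelihood test with Benjamini-Hochberg adjustment over 14392 genes, none of the 10 had an adjusted p under 0.05. No gene in the table did (0%), and the smallest adjusted p was 0.191. DESeq2 called 117 genes (0.813%), and none of the 10 was among them. At an unadjusted p under 0.05, Mdm2 and Ccng1 were the 2 of the 10 genes reached, both lower in the resistant tumours, where 9.76% of all tested genes reached it in either direction and 5.73% in this one. The groups did not overlap in 3 of the 10 genes, all with the sensitive tumours above, as in 7.54% of all tested genes, and the resistant tumours lay above in none of the 10, against 8.41%. On the deposited FPKM the groups were apart in 2 of the 10 (Mdm2 and Ccng1), against 4.61% with the sensitive tumours above. Without sensitive tumour 2, Ccng1 was the 1 gene of the 10 at an unadjusted p under 0.05, beside 6.37% of genes in either direction and 3.15% in this one. With so few genes, these shares do not set the 10 apart from the rest. Their median log2 fold change (resistant minus sensitive) was -0.17, with a range from -2.74 to 0.33, beside a median of -0.02 over all genes tested. Without sensitive tumour 2 these medians were -0.08 and -0.01.

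**Figure D1:**
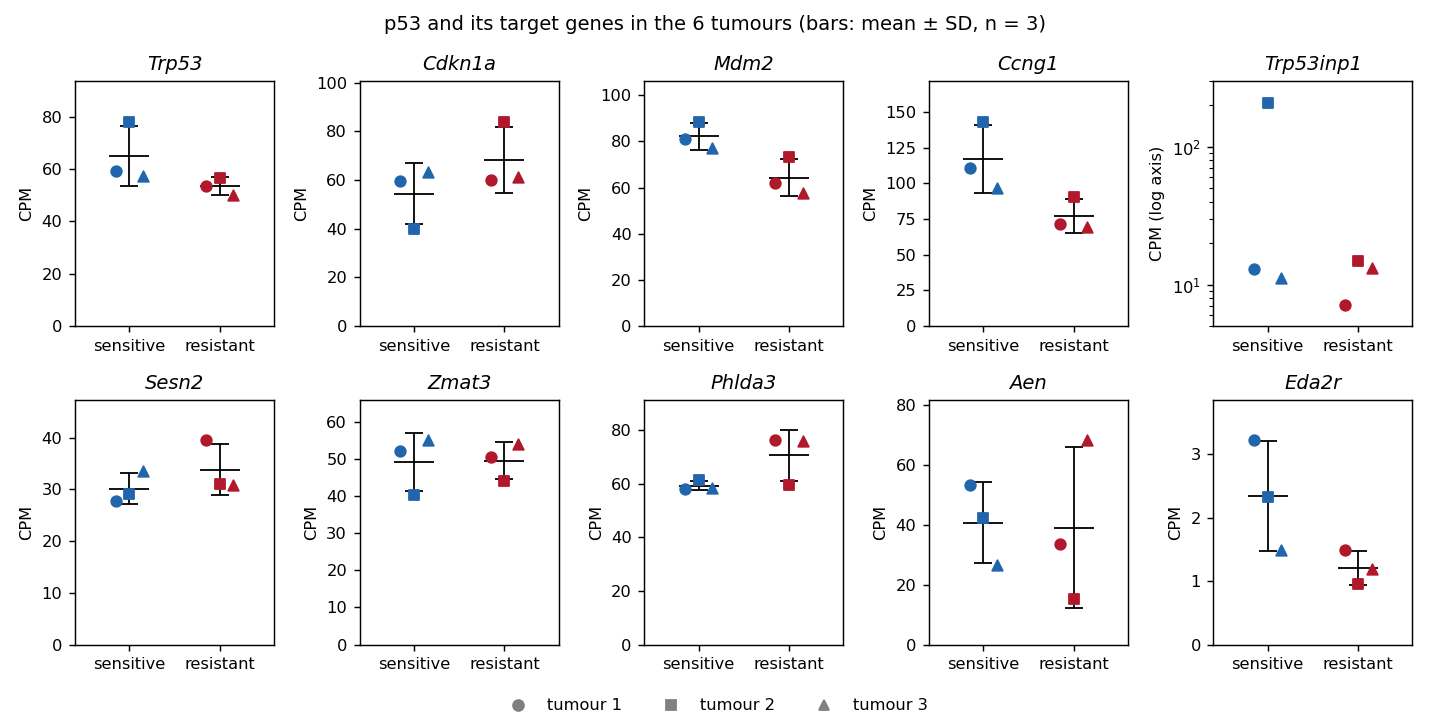
CPM of each of the 10 genes in the 3 sensitive (blue) and 3 resistant (red) tumours, with marker shapes for the tumour numbers and bars for the mean ± SD (n = 3); Trp53inp1 is on a log axis without bars and all other axes start at 0. Mdm2 and Ccng1 separate the groups by more than the gap seen for Trp53, and sensitive tumour 2 lies far above all others in Trp53inp1.

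Trp53 (ENSMUSG00000059552, GRCm38 chromosome 11, 69580359 to 69591873) read 59.4, 78.0 and 57.3 CPM across sensitive tumours 1 to 3, compared with 53.5, 56.7 and 50 CPM across resistant tumours 1 to 3. The lowest sensitive and the highest resistant tumour were less than 1 CPM apart, and sensitive tumour 2 was the highest of the 6. Means were 64.9 ± 11.4 and 53.4 ± 3.33 CPM (SD, n = 3 each). On the log2 scale the difference (resistant minus sensitive, ± SE) was -0.28 ± 0.16, and edgeR gave an adjusted p of 0.541. Without sensitive tumour 2 it was -0.13 ± 0.12. The separation also rests on the scaling, since on the deposited FPKM, which are scaled by the total count alone, the groups overlapped: 7.69, 10.7 and 8.12 FPKM in the sensitive tumours against 7.70, 8.03 and 7.40 FPKM in the resistant ones.

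Mdm2, the ligase that keeps p53 low (ENSMUSG00000020184, chromosome 10, 117688875 to 117710758), read 80.9, 88.5 and 77.1 CPM across the sensitive tumours, compared with 61.9, 73.2 and 57.7 CPM across the resistant tumours. Every sensitive tumour was above every resistant one, and this held on the FPKM as well. Group means of 82.2 ± 5.82 and 64.3 ± 8 CPM gave a log2 difference of -0.35 ± 0.14, with edgeR's adjusted p at 0.510. With 1 tumour left out it stayed between -0.45 and -0.28, and it was -0.28 with scaling by the library size alone. Of the fits with 1 tumour left out, only that without resistant tumour 2 gave Mdm2 an unadjusted p under 0.05 (0.0275, edgeR).

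Ccng1 encodes cyclin G1, a p53 target that recruits the phosphatase PP2A to Mdm2 (ENSMUSG00000020326, chromosome 11, 40748552 to 40755311). The sensitive tumours read 111, 143 and 96.5 CPM, the resistant ones 71.2, 90.6 and 69.1 CPM. Groups did not overlap on CPM or on FPKM, and tumour 2 was the highest of its group in each. Mean levels were 117 ± 24.0 and 77.0 ± 11.8 CPM, with a log2 difference of -0.61 ± 0.19 and adjusted p values of 0.510 by edgeR and 0.194 by DESeq2. Without sensitive tumour 2, the highest, it was -0.43 ± 0.16. Ccng1 was thus the member with the smallest p in the quasi-likelihood test.

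Trp53inp1, a stress-induced gene whose protein acts in autophagy and cell death (ENSMUSG00000028211, chromosome 4, 11156431 to 11174379), had the most negative fold change of the 10. That value came from 1 tumour. Across the sensitive tumours it read 13, 209 and 11.2 CPM, with 3495 counts in sensitive tumour 2. Across the resistant tumours it read 7.13, 14.7 and 13.1 CPM. The other 5 tumours overlapped between the groups. With all tumours the log2 fold change was -2.74 ± 1.18, at an edgeR adjusted p of 0.512, and without sensitive tumour 2 it was -0.05 ± 0.35. DESeq2 set its p to missing as a count outlier. Over the 6 tumours the SD of its log2 CPM was 1.74, larger than in 97.1% of the genes tested.

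The B cell markers Ms4a1 and Cd79a were at 214 and 161 CPM in sensitive tumour 2 and at no more than 1.30 and 0.357 CPM in any other tumour. Jchain, which joins secreted immunoglobulins, was at 1536 CPM, with at most 10.7 CPM elsewhere. The summed T cell markers were at 273 CPM, with at most 33.0 CPM in any other tumour, and all 6 of them were highest in that tumour. The part of lymphocytes in the Trp53inp1 value was not tested. The p53 targets Btg2 and Sfn were also highest in sensitive tumour 2. They were 2 of the 6 tested targets of cell cycle arrest, and 3 of the 6 were lowest there. Of 9 tested targets of cell death, 2 were highest and 3 lowest in that tumour, and of 15 of repair and metabolism, 6 and 5. Of all tested genes, 32.6% were highest and 29.8% lowest in it. Btg2, an antiproliferative gene, stood at 91.6 CPM in sensitive tumour 2, with 3.74 to 26.5 CPM elsewhere, and Sfn, which encodes 14-3-3 sigma, stood at 15.1 CPM, with 1.19 to 1.55 CPM elsewhere.

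**Figure D2:**
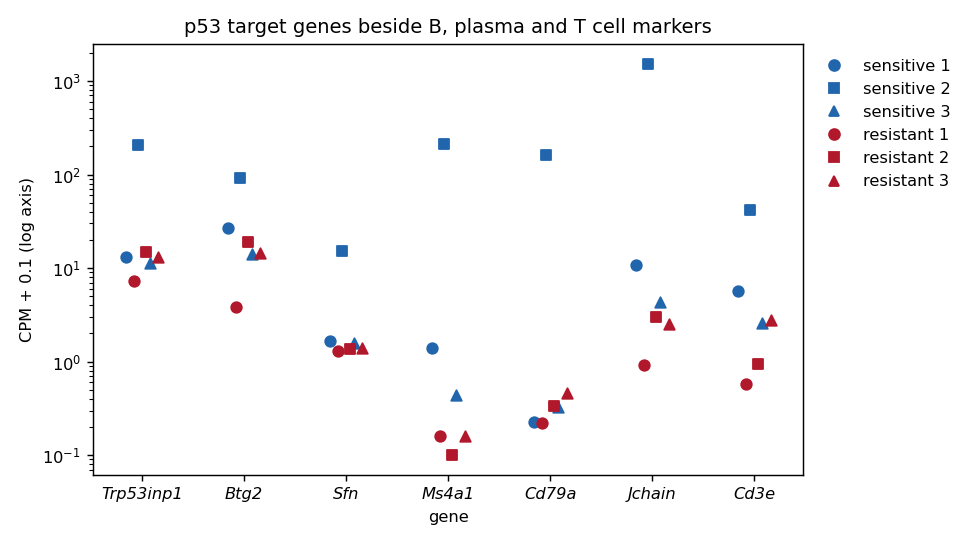
CPM plus 0.1 on a log axis for Trp53inp1, Btg2 and Sfn beside the B and plasma cell markers Ms4a1, Cd79a and Jchain and the T cell marker Cd3e, 1 point per tumour. Sensitive tumour 2 (blue square) is the highest point in every column, and the other 5 tumours lie close together in Trp53inp1 and Sfn.

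Cdkn1a encodes p21, the inhibitor of cyclin-dependent kinases through which p53 halts the cell cycle (ENSMUSG00000023067, chromosome 17, 29090976 to 29100727). Sensitive tumours read 59.6, 40.0 and 63.4 CPM and resistant tumours 59.9, 83.9 and 61.2 CPM. Apart from the tumours numbered 2, which are the lowest and the highest of the 6, the values lay between 59.6 and 63.4 CPM. Group means were 54.4 ± 12.5 and 68.3 ± 13.5 CPM, and the log2 difference of 0.33 ± 0.23 had an edgeR adjusted p of 0.596. It was 0.15 without sensitive tumour 2 and 0.17 without resistant tumour 2. In sensitive tumour 2, Cdkn1a and Zmat3 were at their lowest of the 6 tumours while Trp53, Mdm2, Ccng1 and Trp53inp1 were at their highest, 2 and 4 of the 10 genes. Of all tested genes, 29.8% were lowest and 32.6% highest in that tumour.

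Phlda3, whose protein competes with the kinase Akt for membrane lipids (ENSMUSG00000041801, chromosome 1, 135766119 to 135769136), read 58.1, 61.3 and 58.3 CPM across the sensitive tumours. Across the resistant tumours it read 76.1, 59.6 and 76.0 CPM, so that resistant tumours 1 and 3 lay above every sensitive tumour and resistant tumour 2 lay among them. Its log2 difference was 0.25 ± 0.14, at an edgeR adjusted p of 0.541. Sesn2, a stress-induced inhibitor of mTORC1 signalling (ENSMUSG00000028893, chromosome 4, 132492032 to 132510501), read 27.8, 29.1 and 33.6 against 39.5, 31.1 and 30.9 CPM. Resistant tumour 1 was the highest and the others overlapped, and the log2 fold change of 0.17 ± 0.18 was 0.04 without that tumour. Zmat3, which encodes an RNA-binding zinc finger protein (ENSMUSG00000027663, chromosome 3, 32334792 to 32366014), was the evenest between groups. It read 52.0, 40.2 and 55.0 against 50.6, 44.1 and 54.0 CPM, for a log2 difference of 0.02 ± 0.17.

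Aen encodes a nuclease that acts in apoptosis (ENSMUSG00000030609, chromosome 7, 78895854 to 78911209). It varied within both groups rather than between them, with 53.2, 42.4 and 26.5 CPM across the sensitive and 33.6, 15.3 and 68.2 CPM across the resistant tumours. The highest and the lowest of the 6 values were both resistant tumours, 4.44-fold apart. The log2 fold change was -0.06 ± 0.53, and it took either sign when 1 tumour was left out, from -0.73 without resistant tumour 3 to 0.32 without resistant tumour 2. Eda2r, a receptor of the TNF receptor family (ENSMUSG00000034457, chromosome X, 97333840 to 97377216), was the rarest of the 10, with 52, 39 and 26 counts in the sensitive tumours and 25, 16 and 20 counts in the resistant tumours. Its log2 difference was -0.95 ± 0.45, at an edgeR adjusted p of 0.520, with sensitive tumour 3 and resistant tumour 1 level at 1.49 CPM. Without sensitive tumour 1, the highest, it was -0.62 ± 0.52.

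**Figure D3:**
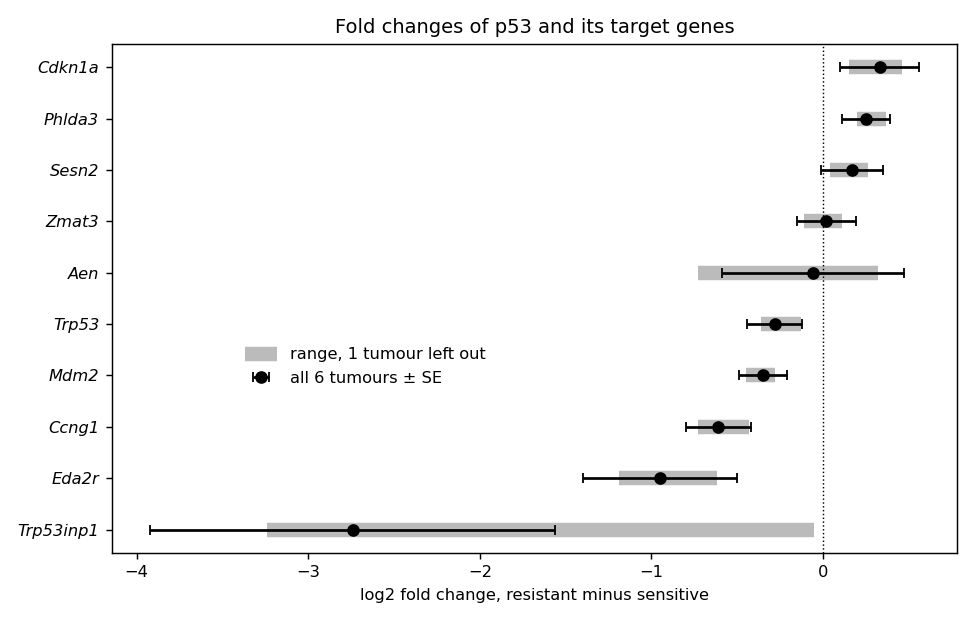
Log2 fold change of each gene, resistant minus sensitive, from edgeR (points, with the SE as bars), and the range of values when 1 of the 6 tumours was left out (grey). The range reaches from -3.24 to -0.05 for Trp53inp1 and crosses 0 for Aen and Zmat3, while those of Mdm2 and Ccng1 stay below 0.

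Compared per length, on the deposited FPKM, Phlda3 was the most abundant of the 10 with a median of 29.9 FPKM over the 6 tumours (26.7 to 39.9). Ccng1 followed at 21.8 (16.8 to 32.5) and Cdkn1a at 20.4 FPKM (12.8 to 27.5), and these neighbours in the order overlapped. Every value of Cdkn1a lay above the highest of Sesn2, which had a median of 9.18 FPKM (7.35 to 11.6). Trp53 had a median of 7.87, Mdm2 of 7.57, Aen of 3.57, Zmat3 of 2.62 and Trp53inp1 of 1.78 FPKM, each overlapping the next above it in the order. For Trp53inp1 the overlap came from sensitive tumour 2 alone, at 28.4 FPKM. Elsewhere it read 1.02 to 2.06 FPKM, below the lowest value of Zmat3 (2.07 FPKM). Eda2r lay apart at 0.216 FPKM (0.138 to 0.424). The SD of log2 CPM over the 6 tumours was 0.18 for Sesn2 and Zmat3, 0.19 for Phlda3, 0.22 for Trp53, 0.23 for Mdm2, 0.34 for Cdkn1a, 0.40 for Ccng1, 0.60 for Eda2r and 0.76 for Aen. Sesn2 varied less than most genes, since 16.5% of the genes tested had a smaller SD, against 79.6% for Aen.

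The genes most like Trp53 and Cdkn1a over the 6 tumours were sought by the root mean square difference of log2 CPM, centred per gene, among 9733 other named genes whose mean log2 CPM was 3 or more. For Trp53 they were Xrn1, an exoribonuclease, at 0.026, Ythdf3, a reader of methylated RNA, at 0.035 and Wbp4, a splicing protein, at 0.036. Mdm2 stood at 0.109 from Trp53, with 190 genes nearer to Trp53 than Mdm2 was, and Ccng1 at 0.188 with 1161 genes nearer. For Cdkn1a the nearest were Kremen1, a Wnt co-receptor regulator, at 0.070, Adamtsl5 at 0.094 and Igfbp3, an insulin-like growth factor binding protein, at 0.097. None of the 9 other p53 genes came close to Cdkn1a, the nearest being Zmat3 at 0.294 with 2870 genes nearer. With 6 tumours, close profiles are found for any gene by search alone.

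Further p53 targets were taken as lists by role, and no gene in them passed the adjusted threshold in edgeR's test. Of 6 tested genes of cell cycle arrest, 0 reached an unadjusted p under 0.05. The list's median log2 fold change was 0.18, and 0.03 without sensitive tumour 2. Plk2 and Plk3, polo-like kinases, had log2 fold changes of 0.36 ± 0.32 and 0.43 ± 0.28, against -1.84 ± 0.83 for Btg2 and -2.27 ± 0.98 for Sfn. Without sensitive tumour 2 those of Plk2, Plk3, Btg2 and Sfn were 0.11, 0.21, -0.72 and -0.28. Rprm, another arrest gene, was not tested, with 0 counts in the sensitive tumours and 2 in each resistant tumour.

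Among 9 tested genes of cell death, 2 reached an unadjusted p under 0.05, both higher in the resistant tumours, where 4.02% of all tested genes did so. Bax, the pore-forming effector of mitochondrial apoptosis, read 35.2, 35.9 and 40.0 CPM across the sensitive tumours, compared with 42.6, 49.3 and 50.9 CPM across the resistant tumours. The groups did not overlap, and the log2 difference was 0.36 ± 0.15 with an edgeR adjusted p of 0.510, lying between 0.31 and 0.44 with 1 tumour left out. Siva1, a proapoptotic adaptor gene, read 14.6, 14.7 and 21.6 against 31.3, 24.9 and 30.7 CPM, also without overlap. Its log2 difference was 0.77 ± 0.23, with the same adjusted p. The BH3-only gene Bbc3 (PUMA) had a log2 fold change of 0.26 ± 0.28, and Pmaip1 (NOXA) one of -0.59 ± 0.60 that was 0.27 without sensitive tumour 2. Fas, the death receptor, had one of -0.77 ± 0.76, and -0.14 without that tumour. Perp, a p53 target of epithelia, had at most 6 counts in any tumour and was not tested. The list's median log2 fold change was 0.08, and -0.01 without sensitive tumour 2.

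Of 15 genes of repair and metabolism, 2 reached an unadjusted p under 0.05, both lower in the resistant tumours, where 5.73% of all tested genes did so. Rrm2b, the p53-induced subunit of ribonucleotide reductase, read 47.0, 57.0 and 53.3 CPM across the sensitive tumours, compared with 33.7, 40.7 and 40.6 CPM across the resistant tumours. The groups were apart, with a log2 difference of -0.45 ± 0.15, an edgeR adjusted p of 0.510 and a range from -0.50 to -0.36 with 1 tumour left out. Tigar, a fructose bisphosphatase that lowers glycolytic flux, read 6.38, 13.7 and 2.11 against 0.713, 1.49 and 1.49 CPM. Its log2 difference was -2.58 ± 0.73 with the same adjusted p, and -1.78 without sensitive tumour 2. The repair genes Xpc and Ddb2 had log2 fold changes of 0.34 ± 0.15 and -0.26 ± 0.28, or 0.28 and -0.03 without that tumour. Ephx1, an epoxide hydrolase, had one of -1.34 ± 0.82 that was -0.04 without sensitive tumour 2. Sesn1, the paralogue of Sesn2, had one of -0.46 ± 0.46, and 0.17 without it. Gdf15, a secreted stress factor, had one of 0.52 ± 0.51, which was 0.16 without resistant tumour 1 and 0.89 without resistant tumour 3. The list's median was -0.16, and -0.06 without sensitive tumour 2.

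**Figure D4:**
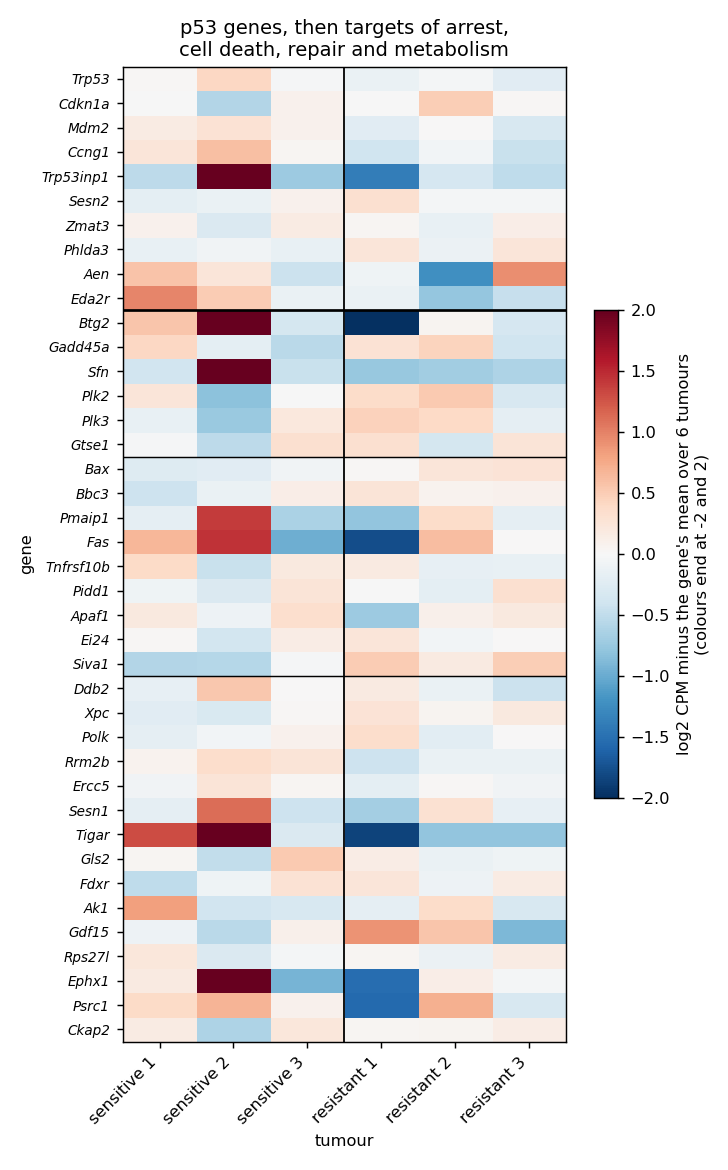
Log2 CPM of the 10 genes and of the tested further targets, each minus its mean over the 6 tumours (rows: genes, with black lines between lists; columns: tumours; red above and blue below the mean, colours ending at -2 and 2). Sensitive tumour 2 holds the darkest red cells (Trp53inp1, Btg2, Sfn, Tigar and Ephx1), and Bax, Siva1 and Xpc are paler or bluer in the sensitive than in the resistant tumours.

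Among 16 tested regulators of p53, 1 gene reached an unadjusted p under 0.05, beside 9.76% of all tested genes in either direction. This was Ep300, an acetyltransferase that coactivates p53, with a log2 fold change of -0.67 ± 0.28, or -0.29 without sensitive tumour 2. Cdkn2a, the locus of Arf, which binds Mdm2 and frees p53, and of p16, read 12.5, 6.26 and 19.6 CPM across the sensitive tumours, compared with 24.2, 17.6 and 28.4 CPM across the resistant ones, with overlap. Its log2 difference was 0.87 ± 0.43, at an edgeR adjusted p of 0.522, and 0.54 without sensitive tumour 2. Mdm4, the Mdm2 paralogue that masks p53, had one of -0.39 ± 0.26, and -0.05 without that tumour. Hipk2, a kinase of p53, had one of -0.50 ± 0.25, or -0.29 without sensitive tumour 1. Of the other family members, Trp63 had 48, 48 and 11 counts in the sensitive tumours against 0, 21 and 5 in the resistant ones, for a log2 difference of -2.04 ± 1.2, which was -3.80 without resistant tumour 2. Trp73 had 15 counts in sensitive tumour 2 and 0 in every other tumour, and was not tested. The list's median was -0.14, and -0.15 without sensitive tumour 2.

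Genes of mitosis that p53 is known to lower through p21 and the DREAM repressor complex lay together in 1 tumour. All 14 were at their lowest of the 6 tumours in sensitive tumour 2, as were 29.8% of all tested genes. That tumour also had the lowest Cdkn1a and the highest B and T cell markers, whose part in these levels was not tested. None reached an unadjusted p under 0.05 between the groups. The median log2 fold change was 0.28, and 0.11 without sensitive tumour 2. Cdk1, the mitotic kinase, had one of 0.44 ± 0.23, and the cyclin gene Ccnb2 one of 0.30 ± 0.17, or 0.24 and 0.15 without that tumour. The values for Birc5 (survivin) and the phosphatase gene Cdc25c were 0.33 ± 0.20 and 0.30 ± 0.21, or 0.15 and 0.18 without it.

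Sesn2 is also a target of ATF4, a factor of the amino acid and endoplasmic reticulum stress responses, and Cdkn1a is also induced by glucocorticoids. All 7 genes of the ATF4 list had log2 fold changes above 0, as had 6811 of the 14392 genes tested, and 6 of the 7 were lowest in sensitive tumour 2, as were 29.8% of all tested genes. The list's median was 0.55, and 0.29 without that tumour. At an unadjusted p under 0.05 stood 2 of the 7, both higher in the resistant tumours, beside 4.02% of all tested genes. These were Trib3, a pseudokinase gene, at 26.5, 26.1 and 58.9 against 94.0, 56.4 and 59.7 CPM, and Ddit3 (CHOP) at 16.5, 21.1 and 20 against 36.6, 32.1 and 21.4 CPM. Their log2 fold changes were 0.91 ± 0.38 and 0.64 ± 0.25, beside 0.47 ± 0.23 for Atf4, 0.64 ± 0.37 for Atf3 and 0.17 ± 0.18 for Sesn2. Of 7 glucocorticoid-induced genes, 3 reached it, all higher in the resistant tumours (4.02% of all tested genes) and with the resistant tumours above every sensitive one (8.41%). They were Per1 at 1.15 ± 0.14, the kinase gene Sgk1 at 0.76 ± 0.21 and Tsc22d3 (GILZ) at 0.93 ± 0.28 on the log2 scale, while Fkbp5 was at 0.23 ± 0.17, Klf9 at 0.19 ± 0.18, Dusp1 at 0.29 ± 0.30, Zbtb16 at -1.13 ± 0.98 and Cdkn1a at 0.33 ± 0.23. Their adjusted p values were 0.332 for Per1 and 0.510 for Sgk1 and Tsc22d3 (edgeR). DESeq2 called Per1. Whether either regulator had a part in the p53 genes was not tested.

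**Figure D5:**
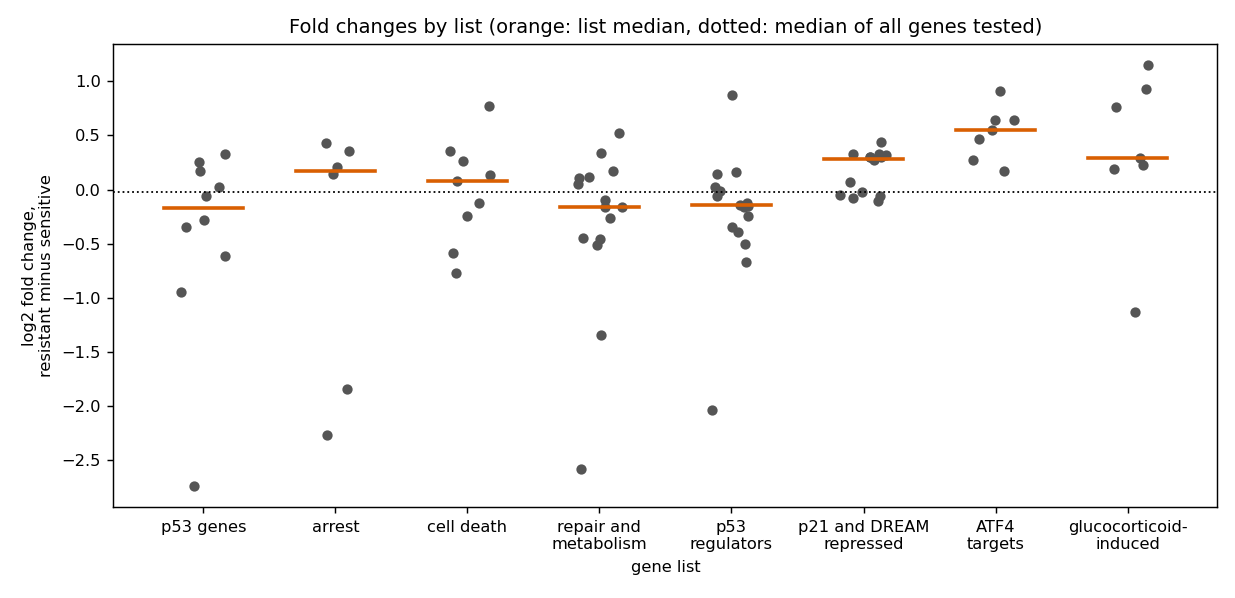
Log2 fold change, resistant minus sensitive, of every tested gene (points) in the 10 p53 genes and in 7 further lists, with the list's median in orange and the median of all genes tested as a dotted line. Medians run from -0.17 in the p53 genes to 0.55 in the ATF4 targets, and the points below -1.5 are Trp53inp1, Btg2, Sfn, Tigar and Trp63. Without sensitive tumour 2 (not drawn) the median was -0.08 in the p53 genes and -0.15 in the p53 regulators.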

How the data were processed

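Per the file headers, the authors deposited whole-number read counts for 20482 genes and, in a second table, the same genes as FPKM, in which the count is divided by gene length and by the tumour's total count. HISAT2, StringTie and edgeR appear, with no version, in the submitters' processing notes. For build, annotation, strandedness and reads with several matches, the authors' choice is not given in the sources used. Coordinates come from GENCODE M21 (GRCm38) by gene identifier, with 99.4% of identifiers found. Date-like symbols (24) were restored the same way, and Cop1 is listed as Rfwd2. Within its annotated span, Sesn2 overlaps Gm12981, which has 9 counts in all, and no other of the 10 genes overlaps a gene of the table.

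Groups and tumour numbers came from the sample titles, and the design text describes biological replicates. No 2 libraries agreed within sampling noise (chi-square per gene of at least 38.5). The test on counts was that of edgeR 4.0.16 under R 4.3.3 (filterByExpr, TMM, quasi-likelihood F-test, no block), adjusted by Benjamini-Hochberg over the 14392 genes tested. The biological coefficient of variation was 0.402. The SE was the fold change divided by the root of F. The fit was also run on simulated data, with an outcome that is not reported here. Alternatives were other scalings and filters, DESeq2 1.42.0, limma 3.58.1 (voom, and log2 FPKM plus 1 or 0.1), a block on the tumour number, and leaving out each tumour.

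The 10 genes and all lists were chosen with earlier results of these data known. Named genes are the 10, up to 4 genes with the smallest p of each list, a fixed set of well-known targets and regulators, and the 3 genes nearest to Trp53 and to Cdkn1a. Klf9, Dusp1 and Zbtb16 were named after their values were seen, to complete their list. Rprm, named as an arrest gene that was not tested, and the cell type markers named singly also lie outside these rules.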

Additional observations from a re-analysis of the deposited data

How the results depend on the processing

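None of the 10 genes passed the adjusted threshold under any alternative run, although DESeq2 left Trp53inp1 without a p and Eda2r did not pass the filter of the fits on log2(FPKM + 1) and log2(FPKM + 0.1). Over all genes, 0 passed in edgeR's quasi-likelihood test and in limma-voom, while DESeq2 called 117 and limma on log2(FPKM + 1) called 1, with or without the filter on low values. The count of the 10 genes at an unadjusted p under 0.05 was 2, and 1 with upper quartile scaling, with the library size alone and with each of the 3 fits on FPKM. Leaving out 1 tumour gave 0 to 3 of the 10: it was 1 without sensitive tumour 2 and 0 without resistant tumour 1 or resistant tumour 3. Over all genes that count was 1404 with all tumours and 631 to 2666 with 1 left out (934 without sensitive tumour 2, 2666 without sensitive tumour 3, 631, 920 and 834 without resistant tumours 1, 2 and 3). An equal count did not always mean the same genes. With no filter on low counts, and without sensitive tumour 1, the 2 were Ccng1 and Trp53inp1. Mdm2 then had an unadjusted p of 0.0577 and 0.104 by edgeR.

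The signs that turned were those of Aen, which was 0.05 with the library size alone and -0.73 to 0.32 with 1 tumour left out, Zmat3 (-0.11 to 0.11), Pmaip1 (-0.93 to 0.27) and Sesn1 (-0.73 to 0.17). The cause was not tested. With a block on the tumour number, 1120 genes and the same number of the 10, 2, reached an unadjusted p under 0.05 and none passed after adjustment. The log2 fold change of Trp53inp1 was then -1.43. The deviations from the group means correlated at 0.054, 0.310 and -0.163 for equal numbers 1, 2 and 3, and at -0.48 to 0.498 for unlike numbers. With 3 tumours in each group, these values cannot decide whether equal numbers mark pairs. Of the 10 genes, Eda2r rests on the fewest reads, 16 to 52 counts per tumour.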
